A study of Canis lupus familiaris with 37 samples.

Results

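The comparison set 12 primary canine B-cell lymphomas against 10 samples of CLBL-1 and CLBL-1M, a pair of cultured canine B-cell lymphoma lines. The 22 samples were chosen by their titles from 37 sequenced samples. Diffuse B-cell lymphoma of the dog arises in lymph nodes, where the malignant B cells sit among macrophages, T cells, vessels and stroma, whereas a line consists of the tumour cells alone in medium. B cells present antigen on MHC class II, signal through the B-cell receptor and answer interferon with a set of antiviral genes, and dividing cells copy DNA and assemble kinetochores on their chromosomes. The question was which of these gene groups differ between lymphomas and lines of the same cell lineage.

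The lymphomas were primary tissue of 12 dogs with naturally occurring multicentric disease. CLBL-1 (5 samples) was established from 1 dog with B-cell lymphoma, and CLBL-1M (5 samples) from a tumour that CLBL-1 formed in a mouse, so that all 10 line samples carry the genome of 1 donor. The spread among them is that of cultures, not of dogs. The lines were grown in RPMI medium with fetal bovine serum. The controls were 4 non-neoplastic lymph nodes. The labels disagree on control replicate 4, which is a control by its title and a lymph node by the German name of its data, while its source label calls it a cell line from a T-cell lymphoma, and results that use it rest on the title. The labels' flow cytometry field does not give B-cell lymphoma for 5 of the 12 lymphomas and gives lymphoma classes for all 4 controls, against their titles. The paper itself states that flow cytometry placed 12 samples in the B-cell class. The names of the data also disagree with the titles on which 5 samples are CLBL-1. The contrast takes the mean of both lines, so exchanging those names leaves it as it is.

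Between 1980761 and 4863730 reads per sample fell on genes in the 22 samples, with medians of 2913420 in the lymphomas and 2961940 in the lines, and 3 reads corresponded to 0.617 to 1.51 CPM, that is, read counts scaled to a library of 1e+06 reads. The share of gene reads that touched several genes was 0.333 to 0.959% in the lymphomas, 1.29 to 1.87% in the lines, 0.573 to 0.616% in control replicates 1 to 3 and 2.78% in control replicate 4. By this measure control replicate 4 lay on the side of the lines, but by others it stood apart from both groups. Reads outside genes made up 82.9% of its file, against 76.2 to 77.6% in the other controls. They made up 70.0 to 76.1% in the lymphomas and 70.4 to 73.8% in the lines. Control replicate 4 had 19668 genes with a count, against 17501 to 18363 in the other controls. The lymphomas had 15180 to 16972 and the lines 14437 to 15162. In the share of reads on several genes the lymphomas and the lines did not overlap. Differences between libraries and between sample types therefore cannot be told apart within the 22 samples. The shift of control replicate 4 from the other controls was therefore given for each gene, and a gene was marked where that shift had the direction of the line minus lymphoma difference and a size of at least 1 on the log2 scale.

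Of 15162 genes tested, 3618 (23.9%) were called, that is, they reached an adjusted p-value of at most 1e-05 in edgeR's quasi-likelihood test. In the lines 1337 (8.82%) were higher and 2281 (15%) lower. At an adjusted p of 0.05, 65.3% of genes passed. The ranges of the lymphomas and the lines did not overlap for 2844 genes (18.8%). The median log2 difference over all genes was -0.23. Large differences lay mostly on the lower side: 1117 genes were called lower by at least 3 on the log2 scale and 295 higher. Of the genes called lower, 325 had 0 counts in all 10 line samples, while 16 of those called higher had 0 counts in all 12 lymphomas. In bulk samples such as these, fewer cells of a type and less RNA per cell cannot be told apart.

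Lymphomas differed more among themselves than the lines did. The mean distance between samples, on log2(CPM + 1) over all tested genes, was 114 for the 66 pairs of lymphomas, 63.6 for the 45 pairs of line samples and 185 between lymphomas and lines. The closest lymphoma and line sample were 159 apart, nearer than the most distant pair of lymphomas (163). The spread of a gene was larger in the lymphomas for 81.3% of genes, with a median SD of 0.467 against 0.275 on that log2 scale. Between CLBL-1 and CLBL-1M, edgeR called 0 genes, at 1e-05 or at 0.05, and 219 genes had an unadjusted p under 0.05 with a lowest adjusted p of 0.236. The lines were split by title here, and the names of the data disagree with that split, so true differences between the lines could be missed.

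The deposited counts pair the Ensembl identifiers with no gene names, and symbols were not taken from the study's tables. Genes are therefore given by identifier and by the function under which those tables name them. The gene with the largest unmarked rise, ENSCAFG00000017937, had no term in those tables. Its level was 0 to 0.649 CPM in the lymphomas, with a median of 0, and 76.5 to 298 CPM in the lines, with a median of 107. No lymphoma came near the lowest line sample, and the 4 controls stood between 0.847 and 1.83 CPM. The log2 difference was 9.59 ± 0.38 (SE, n = 12 and 10), with an adjusted p of 2e-18 in edgeR. ENSCAFG00000016098, also without a term, was next, at 0 to 0.254 CPM in the lymphomas against 33.3 to 84.5 CPM in the lines. It had 3 counts over all lymphomas and 1622 over the lines, a ratio per gene read of 716 (95% interval 245 to 3475, counting error only).

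The unmarked genes with the largest falls were immune genes by their terms. ENSCAFG00000008404, named for myeloid leukocyte activation and tumor necrosis factor production, stood at 171 to 843 CPM in the lymphomas (median 451), 660 to 1208 CPM in the controls and 0 to 0.307 CPM in the lines. It had 19324 counts over the lymphomas and 1 over the lines. ENSCAFG00000020004, named for an immunoglobulin domain and the NF-kappa B pathway, stood at 46.2 to 469 CPM in the lymphomas and at 352 to 683 CPM in the controls. With 0 counts in every line sample it was at least 2406-fold lower there, on a floor of 3 counts over the 10 samples (adjusted p = 2.5e-11, edgeR).

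**Figure D1:**
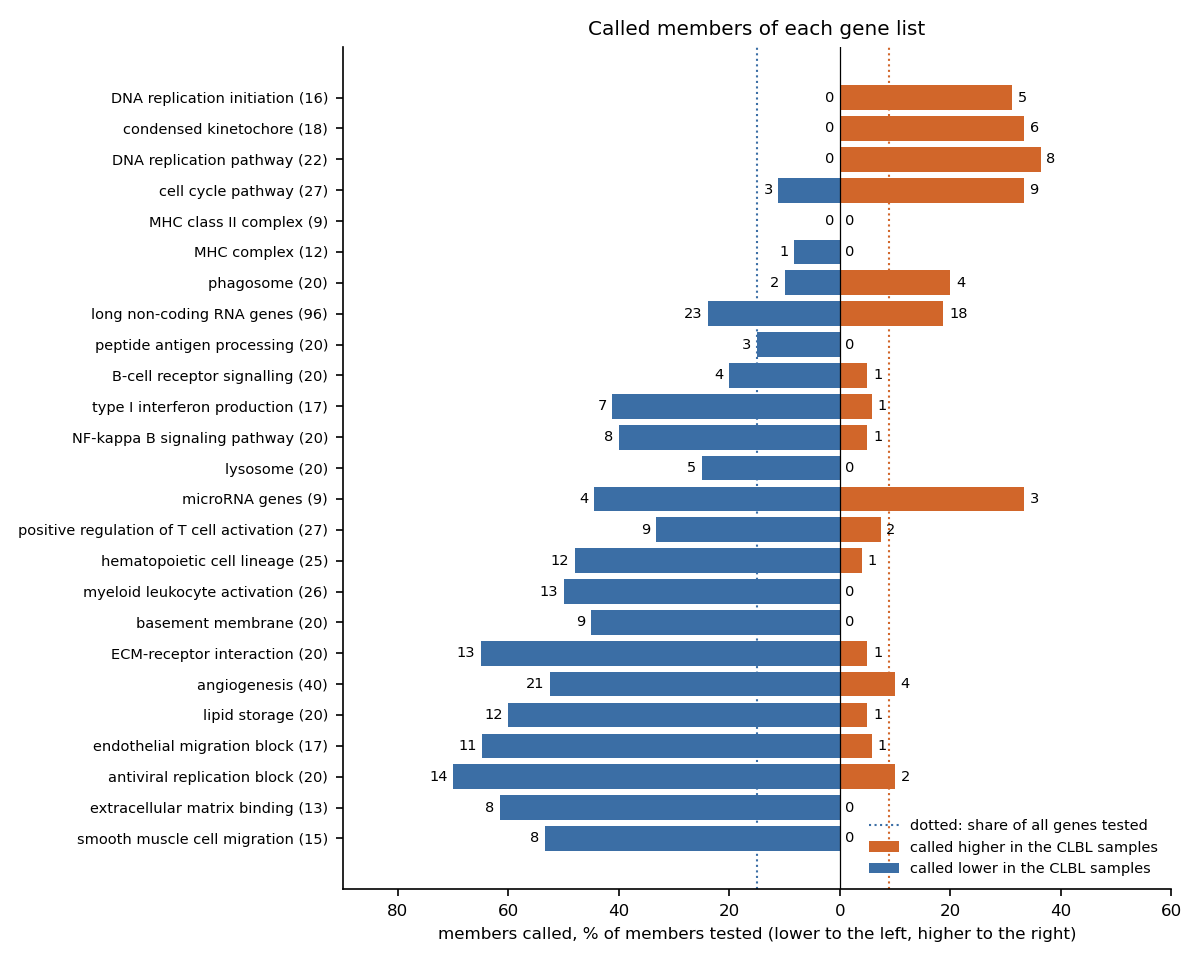
Share of the tested members of each gene list, with the number tested in brackets, that were called lower (left, blue) or higher (right, orange) in the 10 CLBL samples than in the 12 B-cell lymphomas, ordered by the median log2 difference; figures at the bars are gene counts and dotted lines give the shares over all 15162 genes tested, 15% lower and 8.82% higher. Antiviral, matrix and vessel lists lie to the left with up to 14 of 20 members lower, replication and kinetochore lists to the right with 5 to 9 members higher, and the 9 MHC class II genes have none called.

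Gene lists were taken from the study's tables, which name genes that differed from the controls in these same samples, so a list's share of called members is not independent evidence of its direction. The plot of called members sets 25 such lists beside the shares over all genes. Over the lists, 478 distinct genes were tested, 60 called higher and 158 lower in the lines.

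Genes named for blocking the replication of viral genomes were mostly lower in the lines. Of 20 members, 14 were called lower and 2 higher, with a median log2 difference of -4.86 against -0.23 over all genes. ENSCAFG00000010172, named also for innate immunity, was 1 of those lower: it ranged from 3.59 to 1165 CPM over the lymphomas (median 561) and from 0 to 1.04 CPM over the lines. The lowest lymphoma was still above the highest line sample, though by little. Its controls were 48.9, 179, 225 and 787 CPM, and its log2 difference was -11.31 ± 1.01 (SE, adjusted p = 8.47e-11, edgeR).

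ENSCAFG00000013121, a gene named for protein kinase activity, RNA binding and the answer to viruses, was at 22.3 to 295 CPM in the lymphomas and at 0 to 0.458 CPM in the lines. The groups were far apart, and control replicate 4, at 239 CPM, lay among the other controls (191 to 596 CPM). Its log2 difference was -9.40 ± 0.52 (SE, adjusted p = 2.68e-15, edgeR). ENSCAFG00000018171, named for myeloid leukocyte activation as well as for this list, was at 6.74 to 293 CPM in the lymphomas, with a median of 13.5, and at 0 to 0.552 CPM in the lines. A single lymphoma made the top of that range, and the gene was 1 of 3 lower members marked, at 15.4 CPM in control replicate 4 against 31.7 to 56.3 CPM in the other controls. ENSCAFG00000017691, called higher by 0.55 ± 0.09 (SE, adjusted p = 7.67e-06, edgeR), overlapped between lymphomas (263 to 472 CPM) and lines (427 to 639 CPM), and its call was lost when any 1 of most samples was left out.

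**Figure D2:**
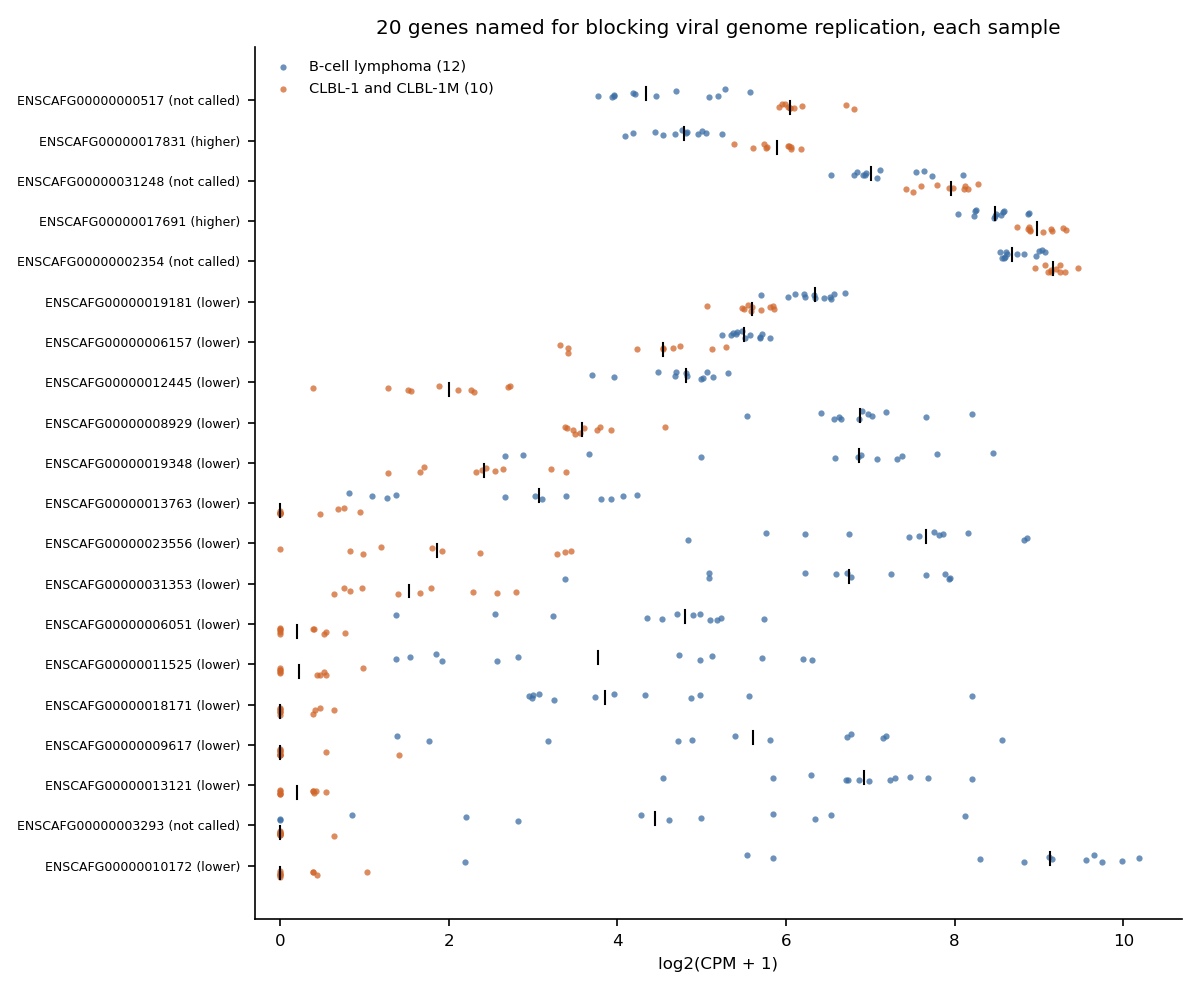
Level of each of 20 genes named for blocking viral genome replication, as log2(CPM + 1), in the 12 B-cell lymphomas (blue) and the 10 CLBL samples (orange); 1 point is 1 sample, black ticks are group medians, and brackets give the call. For most genes called lower the line samples crowd near 0 while the lymphomas spread over several log2 units, as for ENSCAFG00000010172 with 3.59 to 1165 CPM in the lymphomas.

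The lymphomas themselves were uneven in this list. Its summed level ran from 1288 to 4469 CPM over the lymphomas, with a median of 2884, and from 1334 to 1833 CPM over the lines. B-cell lymphoma replicates 11 and 1 were lowest (1288 and 1418 CPM) and replicate 4 was highest. The controls were as uneven, at 1180 to 4349 CPM for replicates 1 to 3 and 1950 CPM for replicate 4. Without the 3 line samples closest to the lymphomas in overall profile (CLBL-1 replicates 1 and 3 and CLBL-1M replicate 2), 9 members were called lower. Those 3 samples also had the fewest reads on genes of the CLBL samples.

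Among 17 genes named for type I interferon production, 7 were lower and 1 higher, with a median of -0.65. ENSCAFG00000011698, named for raising interferon production in innate immunity, was at 176 to 576 CPM in the lymphomas (median 339) and at 160 to 266 CPM in the controls. In the lines it reached 14.5 CPM in 1 sample and its median was 0.154 CPM, a log2 difference of -8.51 ± 0.53 (SE, adjusted p = 5.19e-14, edgeR).

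Among genes of matrix, vessels and stroma, more were called lower than higher in the lines in each list. Of 13 genes for extracellular matrix binding 8 were lower and 0 higher, with a median of -5.0 (-4.94 with members at 0 in the lines set to their bound) and 4 members at 0 counts in all 10 line samples. Of the 8 lower members 2 were marked, beside 14.6% of all genes called lower. The summed level of this list was 72.5 to 276 CPM in the lymphomas and 8.64 to 26 CPM in the lines. It was 993 to 1489 CPM in control replicates 1 to 3 and 671 CPM in control replicate 4. The lymphomas thus lay between CLBL lines and lymph nodes, without overlap on either side. Other lines did not share this order. GL-1, a canine line of B-cell origin outside the comparison, was at 534.6 CPM in its 1 sample. The T-cell line OSW was at 130.5 to 187.4 CPM and the T-cell line CL-1 at 43.14 and 43.22 CPM. Without CLBL-1 replicates 1 and 3 and CLBL-1M replicate 2, 5 members were called lower.

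Of 17 genes that restrain endothelial migration, 11 were lower and 1 higher, with a median of -4.35 (-3.78 at the bound). ENSCAFG00000008692, a gene named for heparin binding in this list, was at 32.3 to 330 CPM in the lymphomas and at 584 to 1121 CPM in the controls. It had no read in any line sample and was at least 1780-fold lower there (adjusted p = 6.07e-10, edgeR). ENSCAFG00000001091, named for matrix binding and angiogenesis, was also without a read in the lines: it had 5.58 to 18.7 CPM in the lymphomas, 62.9 to 91.2 CPM in the controls and was at least 121-fold lower (adjusted p = 1.08e-12).

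ENSCAFG00000004617, a gene of the endothelial list, was at 124 to 771 CPM in the lymphomas and 1.10 to 9.47 CPM in the lines, so that it was low in the lines but present in all of them. Its controls were at 150 to 554 CPM, within the range of the lymphomas (median 466 CPM). Its log2 difference was -6.38 ± 0.52 (SE, adjusted p = 9.85e-12, edgeR). Smooth muscle cell migration (8 lower and 0 higher of 15, median -5.62, -5.15 at the bound), the basement membrane (9 and 0 of 20, median -2.86, -2.72 at the bound), ECM-receptor interaction (13 and 1 of 20, median -3.46, -3.02 at the bound) and angiogenesis (21 and 4 of 40, median -3.82) showed the same side in their calls. The summed levels of these lists did not all follow: they overlapped between lymphomas and lines for ECM-receptor interaction (306 to 807 and 321 to 745 CPM), the endothelial list (1051 to 2068 and 1169 to 1655 CPM), smooth muscle cell migration (184 to 900 and 53.3 to 342 CPM) and angiogenesis (2114 to 4536 and 2135 to 2413 CPM). Marked were 2 lower members each of smooth muscle cell migration and angiogenesis, and 1 each of the endothelial list and the basement membrane. In ECM-receptor interaction 0 were.

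Lists named for other white cells held more members called lower than higher. Of 26 genes named for myeloid leukocyte activation, 13 were lower and 0 higher (median -2.12), and their summed level did not overlap between lymphomas (1085 to 2355 CPM) and lines (541 to 862 CPM). The controls stood at 2433 to 2869 CPM, and control replicate 4 at 2213 CPM. For the positive regulation of T cell activation 9 of 27 were lower and 2 higher (median -1.45), and for the hematopoietic cell lineage 12 of 25 were lower and 1 higher (median -1.74, -1.48 at the bound). Of the lower members 1 of the myeloid, 3 of the T cell and 0 of the hematopoietic list were marked. FLT3, a receptor tyrosine kinase of early blood cells in that last list, was at 0.278 to 6.49 CPM in the lymphomas and 0.309 to 3.26 CPM in the lines, far under the 27.3 to 39 CPM of the controls. Its log2 difference of -1.47 (95% interval -2.24 to -0.71) missed the threshold (adjusted p = 0.00105, edgeR).

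The MHC class II genes lacked the falls of the antiviral and myeloid lists. None of 9 was called in either direction by edgeR, where 23.9% of all genes were. Their ranges overlapped for all 9, beside 18.8% of all genes without overlap, and the median log2 difference was 0.22. In a list of 9 these counts are not far from the shares over all genes. At an adjusted p of 0.05, 4 of the 9 passed, where 65.3% of all genes did, and DESeq2 called 1 higher and 1 lower at 1e-05. Their summed level was 2796 to 12656 CPM in the lymphomas, with a median of 8208, and 7860 to 11987 CPM in the lines, with a median of 8762. Control replicates 1 to 3 (9488 to 10695 CPM) lay inside both ranges, and control replicate 4 (7566 CPM) just under that of the lines.

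ENSCAFG00000000812 ranged from 313 to 3970 CPM there and from 1583 to 2830 CPM in the lines. The lines lay inside the range of the lymphomas, and the log2 difference was -0.12 (95% interval -0.67 to 0.43). ENSCAFG00000000819 was uneven in the lymphomas, with 6.31 to 972 CPM (median 219) against 130 to 288 CPM in the lines. The largest differences that missed the threshold were a lower level of ENSCAFG00000000896, by -1.21 on the log2 scale (95% interval -1.71 to -0.70, adjusted p = 0.000103, edgeR), and a higher level of ENSCAFG00000032102, by 0.86 (0.52 to 1.20, adjusted p = 3.72e-05, edgeR). Reads of near-identical MHC genes can be split between copies, so single members are less certain than the list.

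**Figure D3:**
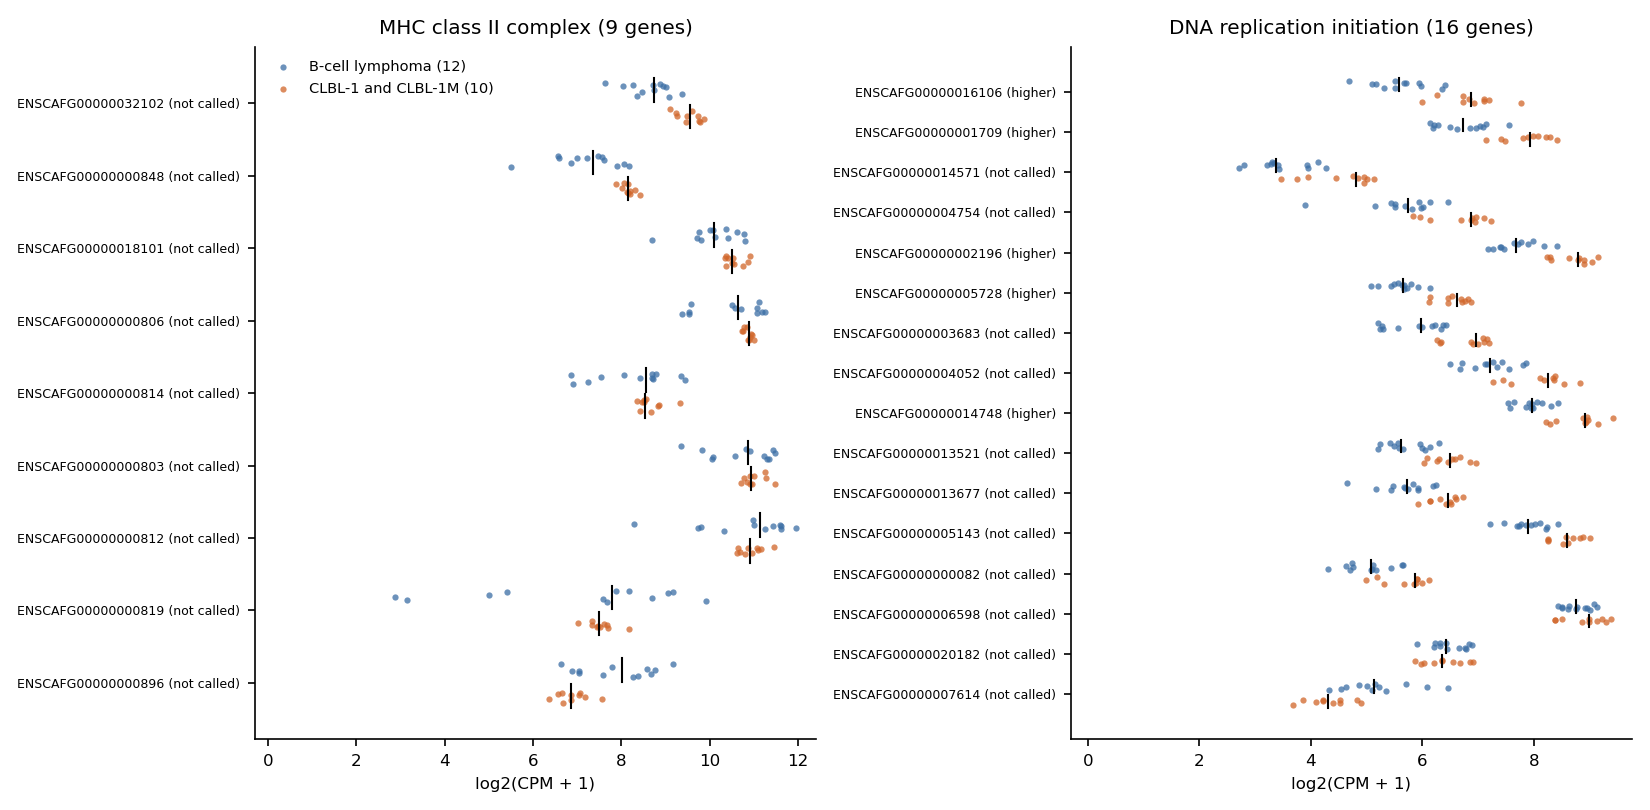
Level, as log2(CPM + 1), of the 9 MHC class II genes (left) and 16 genes of DNA replication initiation (right) in the 12 B-cell lymphomas (blue) and the 10 CLBL samples (orange); 1 point is 1 sample, black ticks are group medians, and brackets give the call. The MHC class II ranges overlap for every gene, and on the right the line medians mostly lie above the lymphoma medians while the ranges still overlap. Of all genes tested, 18.8% had no overlap.

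The wider list of peptide antigen processing, which shares 7 of those genes, had 3 of 20 members lower and 0 higher (median -0.51). This is near the shares over all genes, 15% lower and 8.82% higher. ENSCAFG00000013633, 1 of the 3 lower members, belongs to the MHC complex (12 genes, 1 lower and 0 higher, median 0.20) outside class II. It stood at 1454 to 2874 CPM in the lymphomas, 631 to 1740 CPM in the lines and 3386 to 4176 CPM in control replicates 1 to 3, but at 1735 CPM in control replicate 4. It was thereby marked. The log2 difference of -1.07 ± 0.17 (SE, adjusted p = 2.56e-06, edgeR) became 0.04 (adjusted p = 0.991) once the difference between the controls was taken off, and the call was lost without CLBL-1M replicate 5.

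B-cell receptor signalling stayed closer to the background than the stromal lists, with 4 of 20 members lower and 1 higher (median -0.62). Of all genes 15% were lower and 8.82% higher. ENSCAFG00000012677, a member named for that pathway, was at 339 to 1239 CPM in the lymphomas and at 111 to 233 CPM in the lines, lower than in any lymphoma, with a log2 difference of -1.98 ± 0.20 (SE, adjusted p = 5.15e-10, edgeR). ENSCAFG00000005873, named for signalling of immune receptors, went the other way: 634 to 1037 CPM in the lines were above the 135 to 541 CPM of the lymphomas and the 169 to 277 CPM of the controls (log2 difference 1.46 ± 0.20, SE, adjusted p = 2.74e-07). ENSCAFG00000002171, named for adaptive immunity as well, was at 464 to 1655 CPM against 453 to 769 CPM and was not called (-0.65, adjusted p = 0.00494).

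Among genes that copy DNA and separate chromosomes, a minority of each list was called higher in the lines and none of the first 3 lists lower. Of 22 genes of the DNA replication pathway 8 were higher and 0 lower (median 0.75), of 16 for its initiation 5 and 0 (median 0.91), and of 18 for the condensed kinetochore, where spindle fibres attach, 6 and 0 (median 0.77). In the cell cycle pathway 9 of 27 were higher and 3 lower (median 0.68). No higher member of the first 3 lists was marked by control replicate 4.

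ENSCAFG00000014748, a replication initiation gene, was at 183 to 344 CPM in the lymphomas (median 247) and at 295 to 684 CPM in the lines (median 484). The groups overlapped, and all 4 controls were lower still, at 125 to 137 CPM. Its log2 difference was 0.89 ± 0.13 (SE, adjusted p = 5.6e-07, edgeR).

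ENSCAFG00000016992, named for the kinetochore and cell division, was at 31.0 to 70.7 CPM against 86.7 to 139 CPM, with no overlap (1.17 ± 0.14, SE, adjusted p = 1.46e-08, edgeR). ENSCAFG00000017658, named for the kinetochore and the G2/M transition, had the largest rise of the kinetochore list, from 22.2 to 98.5 CPM in the lymphomas to 98.3 to 277 CPM in the lines (1.83 ± 0.27, SE, adjusted p = 7.47e-07). SHCBP1, an SHC1-binding protein linked to cell division, was at 39.1 to 129 CPM and 80.0 to 139 CPM, a difference of 0.46 (95% interval 0.08 to 0.84) that was not called (adjusted p = 0.0299).

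The counts of these lists moved with the samples used. Without B-cell lymphoma replicates 3 and 6, the lymphomas least like the others, 5 genes of the replication pathway, 1 of initiation and 2 of the kinetochore list were called higher. Without the 5 lymphomas whose flow cytometry field is not B-cell, these counts were 5, 1 and 3. Without CLBL-1 replicates 1 and 3 and CLBL-1M replicate 2 they were 11, 10 and 7. No gene of the first 2 lists was called lower in any of these fits, and 1 of the kinetochore list was in the last.

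Of the remaining lists, NF-kappa B signaling had 8 of 20 members lower and 1 higher (median -0.83), the lysosome 5 and 0 of 20 (-0.92), lipid storage 12 and 1 of 20 (-4.24), and the phagosome 2 lower and 4 higher of 20 (0.13). The phagosome list was the one of these with more higher than lower members. Of the lower members 3 of lipid storage, 1 of NF-kappa B signaling and 0 of the lysosome and phagosome lists were marked. The summed level of the lipid storage list went against its calls, at 1152 to 1777 CPM in the lines (median 1517) and 850 to 1269 CPM in the lymphomas (median 1043).

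Of the 9 microRNA genes, all at an adjusted p under 0.05 where 65.3% of all genes were, 3 were called higher and 4 lower in the lines, and all 3 of the higher and 2 of the lower were marked. MicroRNA genes give rise to short RNAs that lower the output of their target messages. The libraries were made from poly-A RNA, so these counts stand for longer transcripts over the gene and not for the mature microRNA.

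ENSCAFG00000028483 was at 160 to 403 CPM in the lymphomas (median 227), 179 to 248 CPM in control replicates 1 to 3, 121 CPM in control replicate 4 and 24.2 to 64.1 CPM in the lines. The groups were apart, control replicate 4 was the lowest control but above every line sample, and the shift of -0.84 was under the size for a mark. Its log2 difference was -2.83 ± 0.23 (SE, adjusted p = 8.55e-12, edgeR), and -1.99 (adjusted p = 0.0134) after the controls' difference was taken off.

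ENSCAFG00000032467 had 2 counts over all lymphomas and 463 over the lines, with 9.39 to 32.0 CPM in each line sample, a ratio per gene read of 307 (95% interval 84.4 to 2539, counting error only). Control replicates 1 to 3 had no read, and control replicate 4 had 55.4 CPM, more than any line sample. ENSCAFG00000030722, at 1.89 to 9.24 CPM in the lymphomas and 15.6 to 50.1 CPM in the lines, was at 15.7 CPM in control replicate 4 and 1.5 to 3.97 CPM in the other controls. With the controls' difference taken off, its log2 difference went from 2.60 to 0.11 (adjusted p = 0.972, edgeR). ENSCAFG00000031206 did so on the lower side, from -3.13 to 0.09 (adjusted p = 0.994), with 2.25 CPM in control replicate 4 against 13.6 to 31.9 CPM in the other controls. The step between the controls was 10.35, 2.49 and -3.22 for these 3 genes, in that order, and the line minus lymphoma difference 7.42, 2.60 and -3.13.

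**Figure D4:**
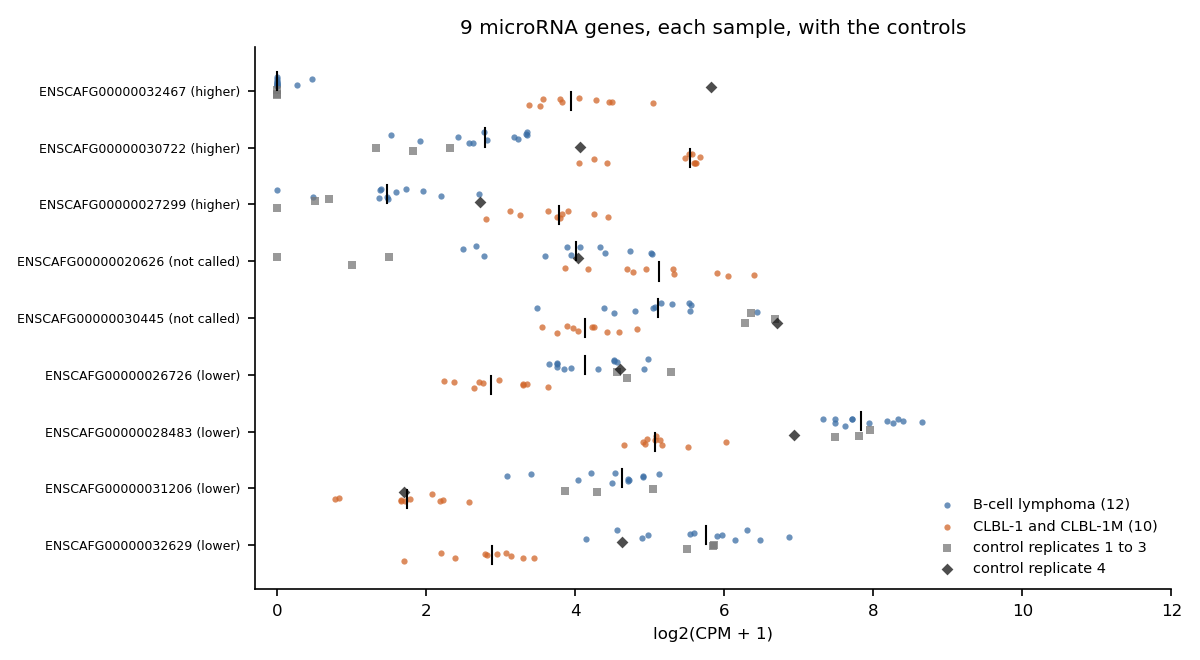
Level of the 9 microRNA genes, as log2(CPM + 1), in the 12 B-cell lymphomas (blue), the 10 CLBL samples (orange), control replicates 1 to 3 (grey squares) and control replicate 4 (black diamond); black ticks are medians of the first 2 groups and brackets give the call. For ENSCAFG00000032467, ENSCAFG00000030722 and ENSCAFG00000031206 the diamond lies with or beyond the line samples and apart from the other controls.

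Long non-coding RNA genes were split: of 96 tested, 18 were called higher and 23 lower in the lines (median -0.03), and 12 of the higher but 1 of the lower were marked. ENSCAFG00000037331 was an unmarked rise, with 0 counts in all lymphomas and all 4 controls and 10.9 to 26.5 CPM in the lines, at least 200-fold higher (adjusted p = 2.42e-10, edgeR). ENSCAFG00000037515 was a large fall, from 6.72 to 135 CPM in the lymphomas and 70.7 to 187 CPM in the controls to 1 count over the 10 line samples (adjusted p = 5.9e-09, edgeR). ENSCAFG00000037917 was at 3.68 to 12.5 CPM in the lines and 0 to 0.398 CPM in the lymphomas, and at 10.9 CPM in control replicate 4 against 0.424 to 0.997 CPM in the other controls. The strand setting of the counting was not given in the sources used here, so reads of a gene on the other strand cannot be told apart from these transcripts.

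Over all genes, 710 of the 3618 called (19.6%) were marked, beside 15.8% of all tested genes that met the same condition. The shares differed by direction. Of the genes called higher in the lines 378 (28.3%) were marked, where 11.5% of all genes were at least 1 log2 unit higher in control replicate 4, and of those called lower 332 (14.6%), where 11.2% of all genes were at least 1 unit lower there. A shift of that size in the opposite direction was seen for 47 of the higher (3.52%) and 95 of the lower genes (4.16%). Among genes higher by at least 3 log2 units 188 of 295 (63.7%) were marked, and among those lower by as much 189 of 1117 (16.9%). These shares describe 1 library against 3 and were not tested.

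**Figure D5:**
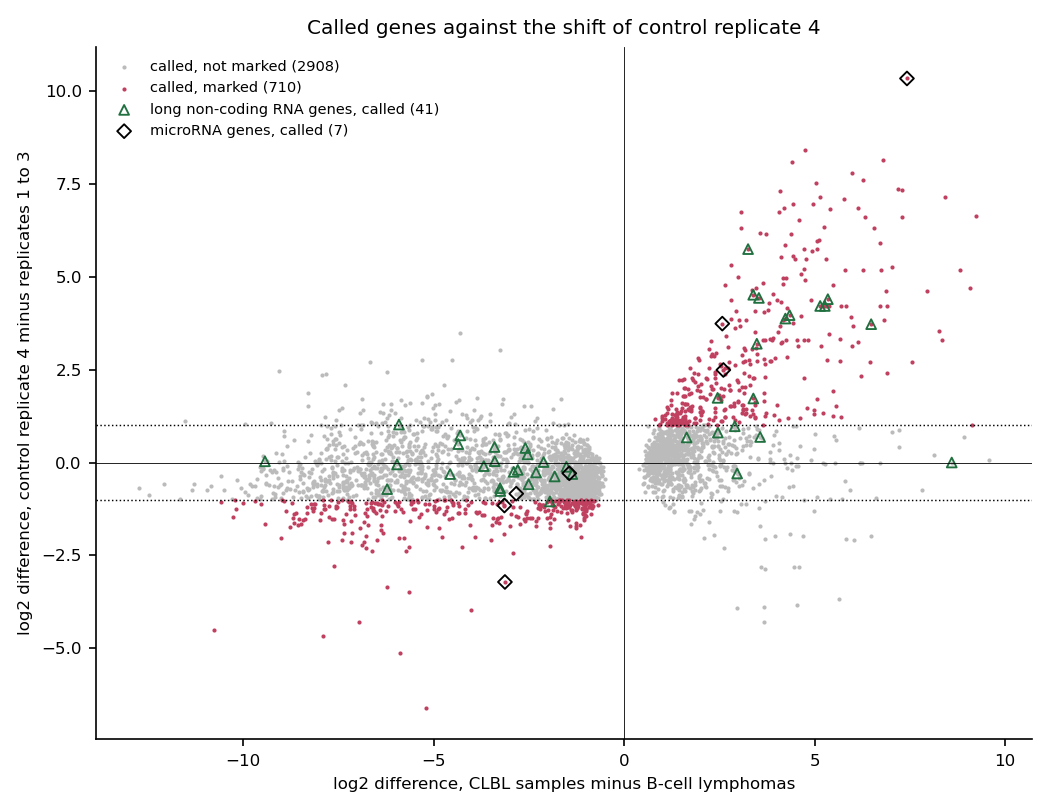
Each of the 3618 called genes by its log2 difference between the 10 CLBL samples and the 12 B-cell lymphomas (horizontal) and between control replicate 4 and control replicates 1 to 3 (vertical); dotted lines mark a shift of 1, red points the 710 marked genes, triangles called long non-coding RNA genes and diamonds called microRNA genes. Large rises often come with a large positive shift of the control, while falls mostly stay within 1 unit of 0.

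When the difference between control replicate 4 and control replicates 1 to 3 was taken off the line minus lymphoma difference, 59 genes (0.389%) passed 1e-05, 57 lower and 2 higher, and 2307 genes (15.2%) passed 0.05. This test rests on a single library on 1 side, and its lone sample is assumed to vary like the other groups. Among the genes described, ENSCAFG00000008404 (-12.05, adjusted p = 2.12e-06), ENSCAFG00000013121 (-8.84, adjusted p = 4.58e-07), ENSCAFG00000011698 (-8.14, adjusted p = 2.61e-06) and ENSCAFG00000001091 (-8.03, adjusted p = 8.45e-07) were lower and ENSCAFG00000017937 (9.52, adjusted p = 3.74e-06) higher by edgeR.

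A like step was taken from 3 intestinal and 1 T-cell lymphoma to the T-cell lines CL-1 (2 samples) and OSW (4 samples). In it, named the T-cell step below, 999 genes (6.59%) were called. The paper treats the intestinal lymphomas as probable T-cell lymphomas by their expression, as their phenotype was uncertain. Their site also differs from that of the multicentric B-cell lymphomas, so site and lineage cannot be told apart where the steps differ. The B-cell and T-cell steps differed for 552 genes (3.64%) at 1e-05 and for 27.8% at 0.05. CL-1 and OSW are 1 line each and were averaged in this test, so they are also given singly. The comparison of each line alone was added after the values were seen.

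For MHC class II the T-cell lines went opposite ways. The summed level was 5161 and 5312 CPM in CL-1 and 21.1 to 31.5 CPM in OSW, against 846 to 2544 CPM in the intestinal and T-cell lymphomas. GL-1, a further canine line of B-cell origin that the comparison leaves out, was at 85.5 CPM in its 1 sample, far under the CLBL lines. Against the mean of both T-cell lines 2 of the 9 genes differed from the B-cell step (7 at 0.05), against OSW alone 7 and against CL-1 alone 0.

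ENSCAFG00000018101 was at 416 to 1789 CPM in the B-cell lymphomas and 1304 to 1940 CPM in the CLBL lines, a step of 0.39. Its T-cell step was 0.99 for CL-1 and -6.31 for OSW, with 441 and 511 CPM in CL-1 and 2.18 to 3.29 CPM in OSW against 128 to 331 CPM in the lymphomas. The steps differed by 3.05 against the mean of both lines (adjusted p = 2.53e-08, edgeR), by 6.70 against OSW (adjusted p = 9.65e-14) and by -0.61 against CL-1 (adjusted p = 0.248). ENSCAFG00000032102, with 0.86 in B cells, had 1.88 for CL-1 and -5.45 for OSW, and its difference of 2.64 (adjusted p = 2.99e-07) became -1.02 against CL-1 alone (adjusted p = 0.0334).

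In B-cell receptor signalling 7 of 20 genes differed between the steps, each with the lower value in the T-cell step, 5 against CL-1 alone and 4 against OSW alone. ENSCAFG00000002171 changed by -0.65 in B cells and, from 29.9 to 63.6 CPM in the lymphomas, by -6.90 in CL-1 and -4.01 in OSW (difference against both 4.81, adjusted p = 1.09e-08, edgeR). ENSCAFG00000005873 rose by 1.46 in B cells, and its T-cell step was -5.05 for CL-1 but -0.33 for OSW. Its level was 740 CPM in the T-cell lymphoma and 48.2 to 200 CPM in the intestinal ones. Its difference of 4.16 against both (adjusted p = 3.01e-09) was 1.80 against OSW alone and no longer called (adjusted p = 0.000851).

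ENSCAFG00000003307, named for smooth muscle cell migration, was lower in the CLBL lines, at 13.1 to 529 CPM in the lymphomas and 0 to 1.23 CPM in the lines (-8.57). Its controls were at 23.7 to 55.3 CPM, within the range of the lymphomas (median 111 CPM). Its T-cell step started lower, at 2.32 to 8.18 CPM in the intestinal and T-cell lymphomas, under every B-cell lymphoma. CL-1 was at 8.19 and 8.69 CPM and OSW at 3.9 to 6.58 CPM, steps of 0.48 and -0.12. The difference between the steps of -8.75 against both lines (adjusted p = 7.42e-08, edgeR) was called against either line alone. Against the mean of both lines, 0 of the 20 antiviral genes differed between the steps at 1e-05 and 3 at 0.05. Of the 13 matrix binding genes 0 and 3 did, where 27.8% of all genes differed at 0.05. Against CL-1 alone these counts were 0 and 5 for the antiviral and 0 and 3 for the matrix binding genes. Against OSW alone they were 1 and 8, and 0 and 4. Of all 15162 genes, 4525 differed at 0.05 against CL-1 and 4208 against OSW.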

How the data were processed

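RNA sequencing of 37 canine samples was compared by their titles. The authors sequenced poly-A RNA as 100-bp paired-end reads, mapped them to CanFam3.1 with BWA, removed duplicates with Picard and SAMtools and counted reads on Ensembl genes with HTSeq (0.6.1 per the labels). What they deposited are unnormalised whole-number counts for each gene. Reads outside genes (68.0 to 82.9% of each file) and reads on several genes stayed out of totals and tests, and reads on several genes reach no gene, which lowers overlapping genes.

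From these counts, 15162 of 32704 genes passed a filter after the study's, a highest CPM over samples above the 40th percentile of genes with a count, taken over all genes together where the study took it per gene class. In R 4.3.3, edgeR 4.0.16 with TMM fitted all 37 samples in 9 title groups, and p-values were Benjamini-Hochberg adjusted over all genes, with a threshold of 1e-05. The contrast was the mean of CLBL-1 and CLBL-1M minus the lymphomas. CPM are TMM-scaled, and SE is the log2 difference over the square root of F. The marks and the difference of differences came from a fit with control replicate 4 as its own group. DESeq2 1.42.0 (Wald test), other filters, sample sets and thresholds were alternatives, and the fit was tested on simulated data. The study's own fold changes and p-values were not used.

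The members and lists were chosen with earlier results of these data known. Planned lists by symbol, inhibitor targets and cell type markers were not matched, because 0 of the Ensembl identifiers occur in the reference table. The paper describes a supplementary list of symbols for its differentially expressed genes, which was not used for matching. Lists of identifiers from the study's tables were used instead, some of them shortened there. The planned rule named the 8 highest and 8 lowest unmarked called genes without overlap and with a mean of at least 10 CPM, the 4 highest and 4 lowest marked ones, SHCBP1 and FLT3, and up to 4 called genes with the largest differences and 2 with the highest CPM of each list. As identifiers carry no names, the first part was cut to 2 and 2 and the second left out, the last was applied to complete lists, and the genes printed were selected from these after their values were seen. CLBL-1 replicates 1 and 3 were the most alike pair (chi-square per degree of freedom 1.33, 2.66 for the next pair) and were kept as 2 samples. Counts in cultures of 1 donor are not independent animals, so p-values measure the spread between these samples. Intervals for ratios of counts cover counting error only.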

Additional observations from a re-analysis of the deposited data

Results flagged for a closer look

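Among the 34 genes named, samples of CLBL-1, CLBL-1M and the controls were examined for 1 value far from its group, which chance gives in about 1 of 20 groups. CLBL-1M replicate 2 stood apart for ENSCAFG00000000819 (288 CPM, highest), ENSCAFG00000018101 (1940 CPM, highest), ENSCAFG00000016992 (86.7 CPM, lowest) and ENSCAFG00000030722 (20.4 CPM, lowest). CLBL-1M replicate 4 was highest for ENSCAFG00000002171 (735 CPM). Control replicate 4 was far above the other controls for ENSCAFG00000032467 (55.4 CPM) and ENSCAFG00000037917 (10.9 CPM), and control replicate 1 was the lowest control for ENSCAFG00000017658 (19.9 CPM).

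The step from lymphomas to lines differed between the CLBL lines and the T-cell lines, by a test of the difference itself, for ENSCAFG00000002171 (4.81), ENSCAFG00000005873 (4.16), ENSCAFG00000018101 (3.05), ENSCAFG00000032102 (2.64) and ENSCAFG00000003307 (-8.75), all on the log2 scale and against the mean of CL-1 and OSW. The MHC class II genes ENSCAFG00000018101 and ENSCAFG00000032102 passed against OSW alone (6.70 and 6.31) and not against CL-1 alone (-0.61 and -1.02), and ENSCAFG00000005873 passed against CL-1 alone (6.51) and not against OSW alone (1.80).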

How the results depend on the processing

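Called genes numbered 3144 (without CLBL-1 replicate 4) to 3636 (without B-cell lymphoma replicate 3) when single samples were left out, with 1072 to 1385 higher and 1996 to 2347 lower, and the share marked was 18.74 to 21.48% when single controls were. No called gene changed direction while called under any setting. With CLBL-1 alone, by title, 1849 were called (835 higher, 1014 lower, 111 list members) and with CLBL-1M alone, by title, 1894 (863, 1031, 131), where fewer samples entered. DESeq2 called 5134 (1885 higher, 3249 lower). A replicate block gave 1567 (453 higher, 1114 lower, 115 list members), 5 for the difference of differences and 316 for the B-cell against T-cell counterpart; the numbers do not pair the samples, since same-numbered samples correlated at -0.294 to 0.114 over 15 pairs. Against CL-1 or OSW alone, the T-cell comparison called 623 and 530 genes in place of 552. The difference of differences gave 59 (2 higher, 57 lower, 10 list members). At an adjusted p of 0.05, 9902 passed (3783 higher, 6119 lower), and 1263 when tested against a 2-fold change (326, 937). The share of called genes marked by control replicate 4 was 52.43% where a shift beyond each other control was enough. The sign turned under the block for ENSCAFG00000000812 (0.075) and ENSCAFG00000000819 (0.079), and in the difference of differences for ENSCAFG00000000812 (0.73), ENSCAFG00000013633 (0.043), ENSCAFG00000032467 (-2.93) and ENSCAFG00000031206 (0.087); the cause was not tested. The last sample sets were chosen after seeing the data: without the 3 line samples nearest the lymphomas 2781 genes were called, and without B-cell lymphoma replicates 3 and 6 it was 3643. At 3 counts per sample, levels under about 1 CPM were not resolved.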

Other observations

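Over the 10 CLBL samples the summed level of the DNA replication pathway ran from 3033 to 5566 CPM, and CLBL-1M replicate 2 (3033 CPM) and CLBL-1 replicates 1 and 3 (3114 and 3182 CPM) were the lowest. The next sample, CLBL-1 replicate 2, was at 4184 CPM, and the lymphomas ran from 2071 to 3501 CPM. The same 3 samples had the highest MHC class II sums of the lines, at 11990, 10410 and 10580 CPM, and the mean correlation of their log2 profiles with the lymphomas was 0.854 to 0.855, while for the other line samples it was 0.833 to 0.842. They also had the fewest reads on genes of the 10 CLBL samples, at 1980761, 2474777 and 2319126, with 2684136 in the next. CLBL-1M replicate 2 had the highest share of reads outside genes among them (73.8%). Whether the pattern follows the libraries was not tested.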
